A study of Mus musculus with 38 samples.

Results

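The mean effect of GW501516 (GW) over 4 genotypes of mouse intestinal stem cell organoids was taken as the equal-weight average of 4 differences, GW minus vehicle in each genotype. Members were the samples whose treatment and genotype the labels give, which were 37 of the 38 samples. All organoids were from C57BL6 mice and were grown from crypts in 65% matrigel for 8 days and 2 passages, with either 1 uM GW in 0.1% DMSO or 0.1% DMSO as vehicle. Wild type (WT) had 5 vehicle and 5 GW libraries. The genotype written Ppard-fl/fl (D) had 5 and 3, Ppara-null (A) had 5 and 5, and Ppard-fl/fl; Ppara-null (DA) had 4 and 5. The series' design text calls these knockouts, but the labels name no recombinase for the floxed allele. The remaining sample had a title and a genotype label that named different genotypes. The column names do not say which of the 4 GW columns of D is its library, and 3 of those columns were used. Nothing in the labels says whether libraries came from separate mice or cultures, so p-values measure only the spread between these libraries, which may be technical.

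GW501516 is a synthetic agonist of PPARδ, a nuclear receptor that binds fatty acids and acts on DNA as a partner of RXR. Its relative PPARα binds a similar DNA element, a direct repeat spaced by a single base, and shares many target genes. In the intestinal epithelium both receptors are known for genes of fatty acid uptake, transport and oxidation, in mitochondria and in peroxisomes. A mean over genotypes answers which genes moved with the agonist on average, and the 4 differences behind it show whether a gene moved to a like extent in all of them.

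The libraries were 3′ tag counts of polyadenylated RNA, with 353347 to 577557 counts each (median 483848) and 9660 to 11085 genes with a count. The share of mitochondrially encoded transcripts was 7.55% to 10.6%. The libraries were split by the numbers in the column names, up to 36 and above it. The numbers ran from 1 to 32 for 23 libraries and from 37 to 56 for 14. These ranges are written 1 to 36 and 37 to 60 below, and every group had libraries in both. Ppara, which encodes PPARα, averaged 17.3 ± 7.08 CPM in vehicle WT and 10.6 ± 6.38 in vehicle D, against 3.64 ± 2.13 in A and 2.01 ± 1.68 in DA (CPM, counts scaled to a common library size with TMM factors). Ppard, which encodes PPARδ, had 0 to 4 counts per library, too few to check its deletion. Summed enterocyte markers had 4820 to 9750 CPM and Paneth cell markers 9404 to 18590 CPM over all libraries, while tuft cell markers had 44 and immune markers 16 counts in total. Lgr5, which marks stem cells, had at most 6 counts per library, 30 in all vehicle and 30 in all GW libraries.

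GW raised 28 genes and lowered 4 on average over the genotypes. The raised genes included Akr1b8, an aldo-keto reductase with the smallest p, and enzymes and carriers of fatty acid metabolism, among them Eci2, Hadha, Hadhb and Slc25a20 of mitochondrial oxidation and Crot and Abcd3 of peroxisomes. Angptl4, a secreted inhibitor of lipoprotein lipase, was raised too. The genes that fell were Akr1c14, which reduces steroids, Olfm4, a secreted protein used as a stem cell marker, Clec2h, a lectin-like membrane protein, and Mpc1, a subunit of the mitochondrial pyruvate carrier. In 25 of the 32 genes (78.1%) DA had the smallest change in the direction of the mean, against 1330 of the 4902 genes tested (27.1%). The same 4 differences chose these genes, of which 20 were also called in WT and 0 in DA. The share is thus a description and not a separate result. The test of unequal changes among genotypes was passed by 3 genes. Only Golgb1, Hadha, Mllt3, Mpc1 and Clec2h met the rule for a like change in all 4 genotypes.

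The 32 genes were called among 4902 tested at an adjusted p under 0.05 (edgeR quasi-likelihood F-test, Benjamini-Hochberg), a share of 0.653%. The higher calls were 0.571% and the lower calls 0.0816% of the genes tested. Unadjusted, 326 genes (6.65%) had a p under 0.05. In single genotypes the same test called 20 genes in WT (0.408%), 15 in A (0.306%), 0 in D and 0 in DA. At an unadjusted p under 0.05 there were 303 genes in WT (6.18%), 176 in A (3.59%), 159 in D (3.24%) and 157 in DA (3.2%). Of the 32 genes, 20 were also called in WT and 13 in A. Among the 32, 11 were called only for the mean and in no single genotype: Acaa1b, Acsl3, Akr1c14, Apoc2, Clec2h, Cpt1a, Golgb1, Mllt3, Mpc1, Olfm4 and R3hdm1. All 4 genes that fell, and 4 of the 5 with a like change in all genotypes, were in this group of 11. The average without D called 32 genes, 28 of them shared, while the averages without A and without WT called 15 (0.306%) and 10 (0.204%), and the average without DA called 39 (0.796%). Libraries 1 to 36 alone called 14 genes, all among the 32, and libraries 37 to 60 called 32, of which 10 were shared, and all 32 genes kept their sign in both. Over the 27 raised genes described here, the mean log2 fold change ran from 0.49 (R3hdm1) to 1.68 (Acaa1b), with a median of 0.72. Their median was 1.21 in WT, 0.98 in A, 0.65 in D and 0.26 in DA, in the same libraries that chose the genes.

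The numbers in the column names also fall into 6 sets of 4 to 8 libraries, each starting at a vehicle column, and no source says what a set stands for. Libraries of a set deviated together from their group means, and a fit with the set as a block, chosen after seeing the data, called 59 genes (1.2% of those tested), 47 higher and 12 lower, among them all 32. For the interaction it called 8 genes in place of 3, the 3 among them, with Akr1b8, Hadhb, Hsd17b11, Reg4 and the pseudogene Rps19-ps6 beside them. It found 16 genes alike in all genotypes in place of 5, all 5 among them. The mitochondrial oxidation list then had 9 called members, with Acaa2, Acadvl and Etfb added. Among genes that fell, Cth, which makes cysteine, had -0.49 (adjusted p = 0.000528, edgeR quasi-likelihood F-test), with -0.50 in WT, -0.58 in D, -0.50 in A and -0.39 in DA. These genes were named after their values were seen. All values below are from the fit without the block unless stated.

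**Figure D1:**
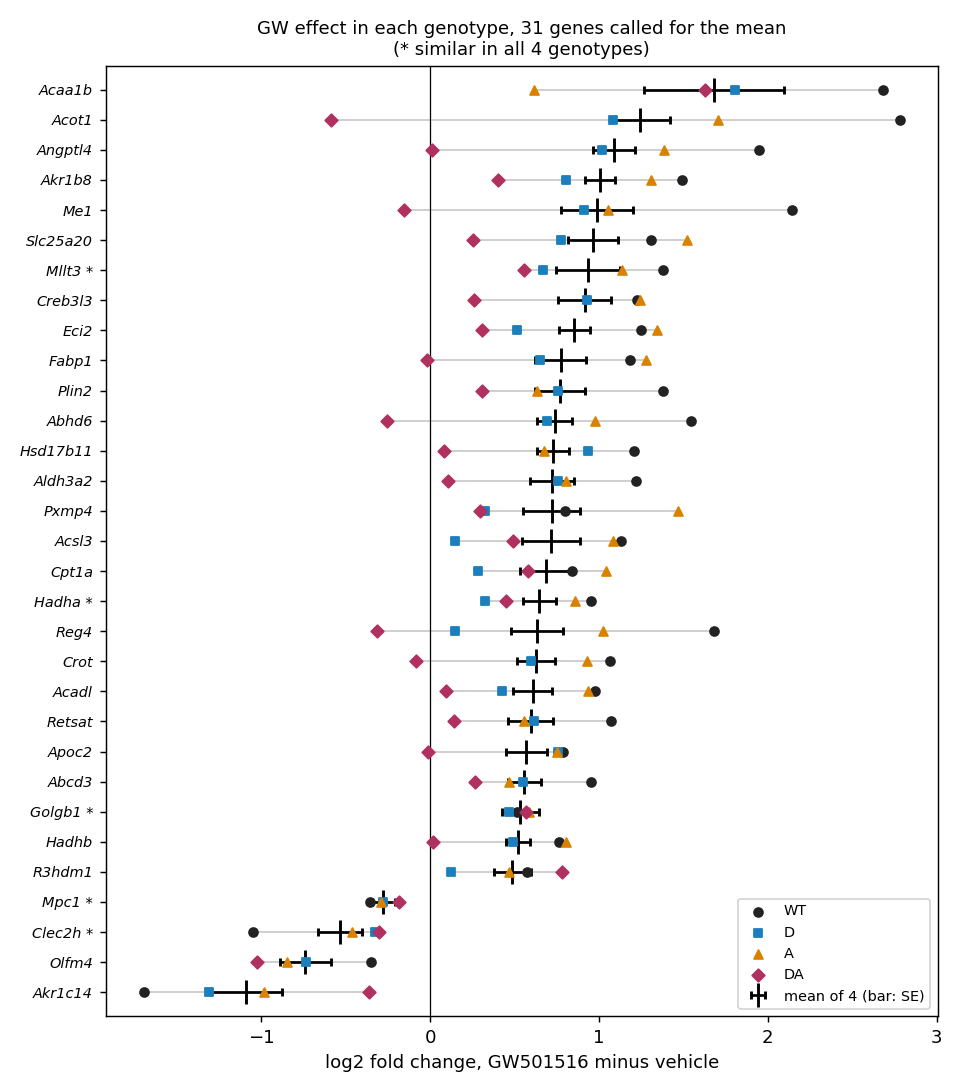
Log2 fold change (GW minus vehicle) of 31 genes called for the mean, in WT (circles), D (squares), A (triangles) and DA (diamonds), with the mean of the 4 and its SE as a black cross and bar. DA has the smallest change in the direction of the mean in 24 of the 31 genes (27.1% of all genes tested), which the same values chose. The 4 symbols of Golgb1 and Mpc1 lie close together.

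A change was described as alike where the mean effect was called, all 4 genotypes had the same sign, the smallest of the 4 log2 fold changes was at least 0.5 times the mean, and the interaction of GW and genotype had an unadjusted p of at least 0.05. The rule is a description with no test of its own, and a missed interaction test does not show equal changes. It held for 5 genes, 0.102% of those tested. The same sign in all 4 genotypes was found in 25 of the 32 called genes and in 17.5% of all genes tested (8.96% higher and 8.59% lower), a difference that the call for the mean favours by construction.

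Golgb1 (ENSMUSG00000034243, mm10 chromosome 16, 36875140 to 36933085) encodes giantin, a large membrane protein of the Golgi. It was raised on average by 0.53 ± 0.11 in log2 (SE; adjusted p = 0.00414, edgeR quasi-likelihood F-test), 1.45-fold. In WT, Golgb1 had 34.6, 37.7, 25.6, 41.6 and 28.4 CPM in vehicle libraries and 51.7, 69.1, 36.1, 45.6 and 37.8 CPM under GW. Golgb1 in D had 44.96, 47.7, 36.6, 34.01 and 29.9 CPM with vehicle and 51.8, 46.6 and 60.1 CPM with GW. GW libraries tended to lie higher in both, with overlap in each. Levels of Golgb1 in A were 37.05, 28.2, 22.3, 27.7 and 35.6 CPM in vehicle and 37.3, 50.1, 35.2, 53.9 and 49.7 CPM under GW. In DA, Golgb1 had 37.5, 31.1, 32.7 and 27.6 CPM and 33.9, 32.6, 53.98, 59.7 and 56.5 CPM in the same order. In DA, 3 of 5 GW libraries lay above every vehicle library and the other 2 lay among them. The groups overlapped in all 4 genotypes, and no single genotype called the gene. The log2 fold changes were 0.52 ± 0.21 in WT, 0.47 ± 0.24 in D, 0.58 ± 0.21 in A and 0.57 ± 0.22 in DA, and the interaction had an unadjusted p of 0.983 (edgeR quasi-likelihood F-test). The change in DA minus the mean of the others was 0.05, with a 95% interval from -0.46 to 0.55. In libraries 1 to 36 the mean effect on Golgb1 was 0.41 (adjusted p = 0.609, edgeR quasi-likelihood F-test). In libraries 37 to 60 it was 0.74, the same sign with no call in either. The changes were 0.68 in WT, 0.20 in D, 0.49 in A and 0.26 in DA in libraries 1 to 36. In libraries 37 to 60 they were 0.28, 0.91, 0.71 and 1.08, with 1 GW library in D and 1 vehicle library in DA. The genotypes thus lay further apart within each range, and Golgb1 met the rule for likeness in neither.

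Mllt3 (ENSMUSG00000028496, mm10 chromosome 4, 87769925 to 88033364) encodes AF9, a chromatin reader of transcription elongation complexes. It was raised on average by 0.93 ± 0.19 in log2 (adjusted p = 0.00377, edgeR quasi-likelihood F-test), 1.91-fold, from few counts, with 2 to 20 in each library. In WT, Mllt3 had 9.23, 11.1, 10.7, 13.1 and 9.46 CPM in vehicle libraries and 12.4, 24.7, 51.5, 27.4 and 27.9 CPM under GW. Mllt3 in D had 16.3, 17.02, 8.13, 7.56 and 14.9 CPM with vehicle and 28.3, 12.3 and 19.1 CPM with GW. A single GW library of WT, at 51.5 CPM, stood far above the rest. Levels of Mllt3 in A were 13.1, 10.8, 4.97, 10.4 and 10.7 CPM in vehicle and 25.7, 25.04, 27.1, 26.9 and 8.65 CPM under GW. In DA, Mllt3 had 18.7, 14.6, 6.54 and 5.52 CPM and 13.96, 19.04, 17.99, 16.5 and 16.95 CPM in the same order. Of the GW libraries in A, 4 lay between 25.04 and 27.1 CPM and 1 at 8.65 CPM, within the vehicle range. The log2 fold changes of Mllt3 were 1.38 ± 0.34 in WT, 0.67 ± 0.41 in D, 1.14 ± 0.35 in A and 0.55 ± 0.38 in DA, wide errors that also span unequal changes (interaction, unadjusted p = 0.369, edgeR quasi-likelihood F-test). It had 0.94 in libraries 1 to 36 and 1.098 in libraries 37 to 60, and was called in neither.

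Hadha (ENSMUSG00000025745, mm10 chromosome 5, 30118304 to 30155162) encodes the α subunit of the mitochondrial trifunctional protein, which carries out steps of long-chain fatty acid oxidation. It was the most firmly called of the 5, raised on average by 0.65 ± 0.10 in log2 (adjusted p = 5.18e-05, edgeR quasi-likelihood F-test), 1.57-fold. In WT, Hadha had 90.02, 129, 87.5, 184 and 125 CPM in vehicle libraries and 246, 308, 134, 219 and 283 CPM under GW. Hadha in D had 121, 160.03, 150.3, 187 and 149 CPM with vehicle and 205, 186 and 186 CPM with GW. In D, 1 vehicle library lay slightly above 2 of the 3 GW libraries. Levels of Hadha in A were 105, 147, 132, 149 and 89.1 CPM in vehicle and 217, 207, 211, 250.1 and 240.03 CPM under GW. In DA, Hadha had 125, 129.9, 109 and 116 CPM and 164, 190.4, 128, 210.1 and 129.97 CPM in the same order. All GW libraries lay above all vehicle libraries in A, and 3 of 5 did so by a clear margin in DA. The log2 fold changes of Hadha were 0.95 ± 0.19 in WT, 0.33 ± 0.21 in D, 0.86 ± 0.19 in A and 0.45 ± 0.20 in DA, so the likeness here was looser than for Golgb1 (interaction, unadjusted p = 0.0872, edgeR quasi-likelihood F-test). The mean effect on Hadha was 0.69 in libraries 1 to 36 and 0.62 in libraries 37 to 60. Its D value of 0.33 stood at the edge of the rule, just above 0.5 times the mean. The β subunit Hadhb (0.52 ± 0.07 on average) did not share this pattern, with 0.76 in WT, 0.49 in D, 0.80 in A and 0.02 in DA. For Hadhb the difference of DA from the mean of the others was -0.67, with a 95% interval from -1.002 to -0.33, and for Hadha it was -0.26, from -0.73 to 0.20. The 2 intervals overlap, and the difference between the subunits was not tested.

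Mpc1 (ENSMUSG00000023861, mm10 chromosome 17, 8282904 to 8297661) encodes a subunit of the carrier that brings pyruvate into mitochondria. It fell on average by 0.28 in log2, with an SE of 0.07 (adjusted p = 0.0315, edgeR quasi-likelihood F-test), which is the smallest change among the 32 genes and a level of 0.825 times vehicle. In WT, Mpc1 had 434, 552, 463, 475 and 424 CPM in vehicle libraries and 418, 412, 389, 276 and 342 CPM under GW. Mpc1 in D had 472, 494, 611, 448 and 420.2 CPM with vehicle and 382, 485 and 341 CPM with GW. All WT libraries with GW lay below all those with vehicle, by a narrow margin. Levels of Mpc1 in A were 523, 477, 395, 429 and 428 CPM in vehicle and 373, 384, 382, 308 and 396 CPM under GW. In DA, Mpc1 had 377, 412, 449 and 405 CPM and 377, 419, 398, 309 and 307 CPM in the same order. In DA the groups overlapped widely. The log2 fold changes of Mpc1 were -0.35 ± 0.13 in WT, -0.28 ± 0.15 in D, -0.29 ± 0.13 in A and -0.18 ± 0.13 in DA (interaction, unadjusted p = 0.839, edgeR quasi-likelihood F-test). With 121 to 301 counts per library, Mpc1 was the most deeply counted of the 5. It had -0.22 in libraries 1 to 36 and -0.38 in libraries 37 to 60, with no call in either, and it missed the threshold in 12 of the 37 fits that left out 1 library (highest adjusted p = 0.108, edgeR quasi-likelihood F-test).

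Clec2h (ENSMUSG00000030364, mm10 chromosome 6, 128662385 to 128677374) encodes a C-type lectin-like membrane protein of the gut epithelium. It fell on average by 0.54 in log2, with an SE of 0.13 (adjusted p = 0.0315, edgeR quasi-likelihood F-test). In WT, Clec2h had 50.8, 82.1, 89.6, 81.04 and 102 CPM in vehicle libraries and 55.9, 39.5, 41.2, 27.4 and 31.9 CPM under GW. Clec2h in D had 73.6, 129, 134, 58.6 and 56.02 CPM with vehicle and 82.5, 85.8 and 40.96 CPM with GW. The D vehicle libraries split between 2 high and 3 low values, and the GW values lay within their range or below it. Levels of Clec2h in A were 74.1, 71.6, 84.4, 39.8 and 87.3 CPM in vehicle and 55.98, 60.5, 40.6, 40.4 and 58.4 CPM under GW. In DA, Clec2h had 70.8, 82.3, 89.4 and 69.97 CPM and 63.8, 78.9, 65.2, 65.9 and 45.2 CPM in the same order. GW libraries were lower on average in each genotype, with overlap in all 4. The log2 fold changes of Clec2h were -1.05 ± 0.26 in WT, -0.33 ± 0.28 in D, -0.47 ± 0.25 in A and -0.30 ± 0.25 in DA (interaction, unadjusted p = 0.159, edgeR quasi-likelihood F-test). The rule limits only the smallest change, and WT fell further than the rest, so the likeness here was loose. Clec2h had -0.46 in libraries 1 to 36, where it was not called, and -0.70 in libraries 37 to 60. It missed the threshold in 15 of the 37 fits that left out 1 library (highest adjusted p = 0.103, edgeR quasi-likelihood F-test). The call was also lost in the averages without A and without WT.

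Olfm4 (ENSMUSG00000022026, mm10 chromosome 14, 79984081 to 80023139), a secreted glycoprotein of crypt stem cells, fell on average by 0.74 in log2, with an SE of 0.15 (adjusted p = 0.00385, edgeR quasi-likelihood F-test). It fell short of the rule for likeness because its smallest change was 0.474 times the mean, where the peroxisomal transporter Abcd3 stood too, against 0.505 for Hadha just inside. In WT, Olfm4 had 78.5, 113, 49.1, 70.1 and 85.1 CPM in vehicle libraries and 68.3, 59.2, 46.4, 77.5 and 57.7 CPM under GW. Olfm4 in D had 143, 68.1, 91.4, 96.4 and 56.02 CPM with vehicle and 65.98, 41.7 and 57.3 CPM with GW. The WT groups overlapped widely. Levels of Olfm4 in A were 126, 65.1, 59.6, 84.8 and 64.1 CPM in vehicle and 53.6, 39.6, 46.00, 44.3 and 38.9 CPM under GW. In DA, Olfm4 had 175, 64.02, 50.1 and 107 CPM and 49.9, 51.7, 56.2, 24.7 and 60.3 CPM in the same order. All GW libraries lay below all vehicle libraries in A, and vehicle libraries varied most in DA. The order of Olfm4 ran opposite to most called genes, with -0.35 ± 0.28 in WT, -0.73 ± 0.33 in D, -0.85 ± 0.29 in A and -1.02 ± 0.29 in DA (interaction, unadjusted p = 0.401, edgeR quasi-likelihood F-test). The Olfm4 call was lost when the average left out DA or A. It had -0.78 in libraries 1 to 36 and -0.68 in libraries 37 to 60. Of 10 tested stem cell markers, Olfm4 was the only one called, and their median was -0.08. On average 7 of the 10 were lower, against 49.8% of all genes tested. Aqp4, a water channel, had -0.48 ± 0.21 and was not called (adjusted p = 0.582, edgeR quasi-likelihood F-test). In bulk libraries, fewer cells of a type and less RNA per cell cannot be told apart.

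**Figure D2:**
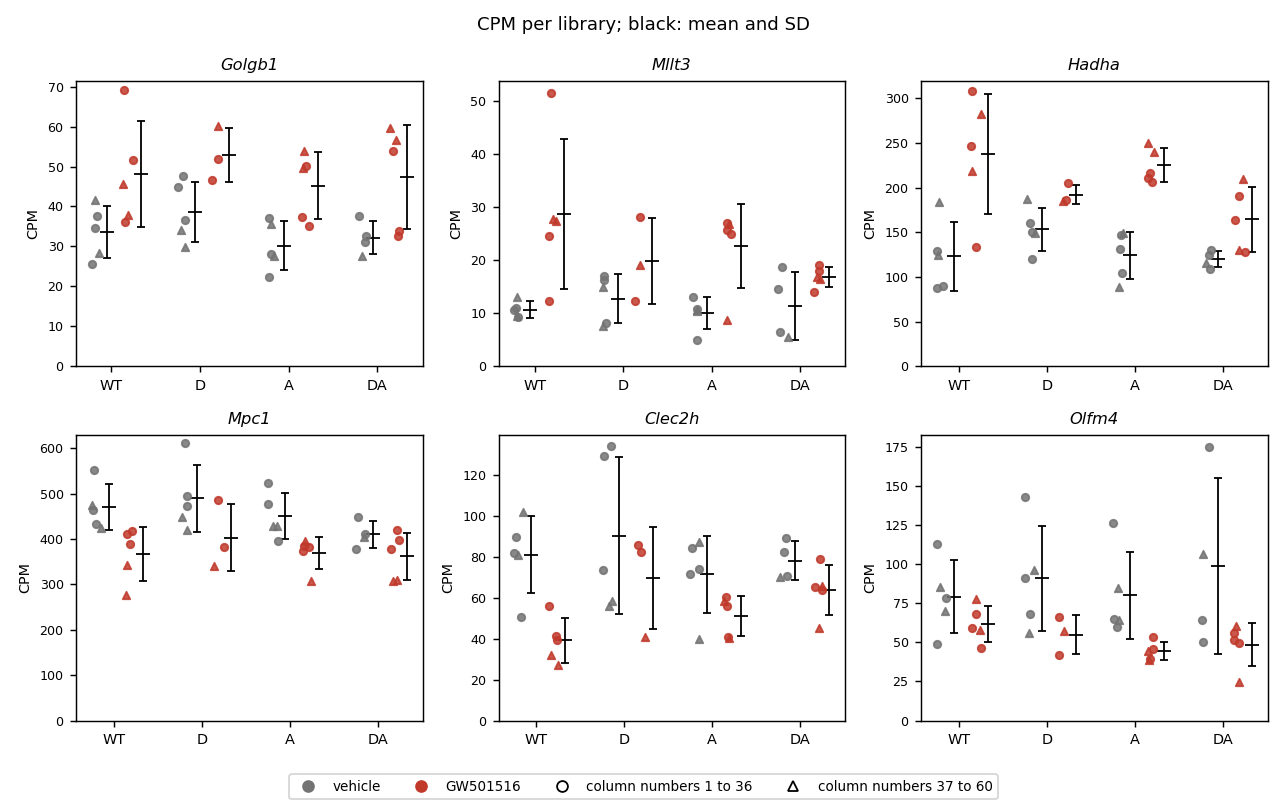
Normalised counts (CPM, linear axes) of Golgb1, Mllt3, Hadha, Mpc1, Clec2h and Olfm4 in each library, vehicle in grey and GW in red, with circles for columns numbered 1 to 36, triangles for 37 to 60, and black bars for the mean and SD of each group. GW means lie above vehicle means in every genotype for the top row and below them for the bottom row, with overlapping libraries in most genotypes.

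The unequal changes were tested directly. The interaction of GW and genotype was called for 3 genes (0.0612% of those tested), the thioesterase Acot1, the monoacylglycerol lipase Abhd6 and Angptl4. The contrast of DA against the mean of WT, D and A was called for the same 3, and in each the GW effect was lower in DA. At an unadjusted p under 0.05 the interaction took in 15 of the 32 called genes, against 2.75% of all genes tested. The 32 genes were chosen for their GW effect in these same libraries, which by itself can set them apart from all genes tested. For the 3 called genes, the mean over genotypes joins values that differed beyond the spread between libraries.

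Acot1 (ENSMUSG00000072949, mm10 chromosome 12, 84009490 to 84018371) releases fatty acids from coenzyme A. In WT, Acot1 had 13.8, 6.65, 4.27, 6.57 and 15.1 CPM in vehicle libraries and 45.5, 91.2, 41.2, 93.5 and 59.7 CPM under GW. Acot1 in D had 22.5, 13.6, 28.4, 13.2 and 14.9 CPM with vehicle and 51.8, 24.5 and 43.7 CPM with GW. Levels of Acot1 in A were 13.1, 17.3, 4.97, 15.6 and 8.91 CPM in vehicle and 39.7, 43.8, 29.8, 34.6 and 51.9 CPM under GW. In WT and A no GW library reached down to the vehicle range, and in D 1 of 3 did. In DA, Acot1 had 29.2, 23.8, 52.3 and 18.4 CPM and 21.9, 27.2, 11.2, 16.5 and 24.5 CPM in the same order. In DA the direction of the group means was reversed, with overlap. The mean effect of 1.25 ± 0.18 thus combined 2.78 in WT, 1.08 in D, 1.70 in A and -0.59 in DA. The interaction had an adjusted p of 0.00227, and DA differed from the mean of the others by -2.44, with a 95% interval from -3.25 to -1.63 (adjusted p = 0.00192, edgeR quasi-likelihood F-test). In DA it had -0.79 in libraries 1 to 36 and 0.17 in libraries 37 to 60, where a single vehicle library stands, and neither set called the difference of DA. Acot1 has near-identical neighbours in its family, and the counting could split reads among them.

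Abhd6 (ENSMUSG00000025277, mm10 chromosome 14, 8002902 to 8056763) cleaves monoacylglycerols. In WT, Abhd6 had 55.4, 24.4, 34.1, 59.1 and 51.1 CPM in vehicle libraries and 126, 168, 137, 123 and 106 CPM under GW. Abhd6 in D had 57.2, 64.7, 67.04, 45.3 and 70.96 CPM with vehicle and 120.2, 100.5 and 73.7 CPM with GW. Levels of Abhd6 in A were 69.7, 69.4, 39.7, 45.01 and 40.98 CPM in vehicle and 83.97, 109, 119, 92.4 and 117 CPM under GW. All GW libraries lay above all vehicle libraries in these 3 genotypes. In DA, Abhd6 had 60.4, 67.7, 54.5 and 69.97 CPM and 59.8, 59.8, 42.7, 57.7 and 45.2 CPM in the same order. In DA they lay within or below the vehicle range. The mean effect of 0.74 ± 0.10 combined 1.54, 0.69, 0.98 and -0.26 in WT, D, A and DA, and DA differed from the others by -1.33, with a 95% interval from -1.82 to -0.84 (adjusted p = 0.00752, edgeR quasi-likelihood F-test). Its DA value was -0.17 in libraries 1 to 36 and -0.44 in libraries 37 to 60.

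Angptl4 (ENSMUSG00000002289, mm10 chromosome 17, 33773750 to 33781830), a secreted inhibitor of lipoprotein lipase, had the third-smallest p of the mean effect. In WT, Angptl4 had 30.01, 19.96, 17.1, 24.1 and 34.05 CPM in vehicle libraries and 89.00, 136, 77.3, 91.2 and 97.5 CPM under GW. Angptl4 in D had 28.6, 30.6, 52.8, 37.8 and 48.6 CPM with vehicle and 120.2, 61.3 and 62.8 CPM with GW. Levels of Angptl4 in A were 23.97, 45.5, 32.3, 29.4 and 23.2 CPM in vehicle and 46.7, 95.99, 89.3, 86.6 and 82.2 CPM under GW. GW libraries again lay above vehicle in these 3 genotypes without overlap, in A by the margin of 1 low GW library. In DA, Angptl4 had 47.9, 53.05, 58.9 and 46.03 CPM and 47.9, 40.8, 69.7, 35.01 and 64.05 CPM in the same order. The DA groups overlapped and their means were equal to the digits given, at 51.5 ± 5.76 and 51.5 ± 14.9 CPM. The mean effect was 1.09 ± 0.12 (adjusted p = 1.79e-07), and DA differed from the others by -1.44, with a 95% interval from -2.02 to -0.86 (adjusted p = 0.0185, edgeR quasi-likelihood F-test). That difference missed the threshold without GW_DA library 1, 2 or 4 or Veh_DA library 2 or 3, with an adjusted p of up to 0.117 (edgeR quasi-likelihood F-test).

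Akr1b8 (ENSMUSG00000029762, mm10 chromosome 6, 34354119 to 34368463), an aldo-keto reductase that detoxifies reactive aldehydes, had the smallest p of the mean effect, at 2.005-fold and 1.00 ± 0.09 in log2 (adjusted p = 5.84e-10, edgeR quasi-likelihood F-test). In WT, Akr1b8 had 205, 193, 228, 151 and 148 CPM in vehicle libraries and 414, 503, 665, 511 and 516 CPM under GW. Akr1b8 in D had 210.5, 242, 185, 219 and 237 CPM with vehicle and 329.9, 345 and 472 CPM with GW. Levels of Akr1b8 in A were 155, 221, 174, 164 and 112 CPM in vehicle and 359, 399, 460.04, 448 and 378 CPM under GW. In each of these genotypes all GW libraries lay above all vehicle libraries. In DA, Akr1b8 had 225, 174, 288 and 199 CPM and 261, 215, 344, 239 and 396 CPM in the same order. In DA, 2 of 5 GW libraries lay above every vehicle library. Unlike the 3 genes above, its DA value was higher rather than near or below 0, at 0.40 ± 0.18, beside 1.49 ± 0.17 in WT. The change in DA was not called (unadjusted p = 0.0317, adjusted p = 0.9998, edgeR quasi-likelihood F-test). The interaction was not called either (adjusted p = 0.194), though it was with the set block (adjusted p = 0.00984, edgeR quasi-likelihood F-test).

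**Figure D3:**
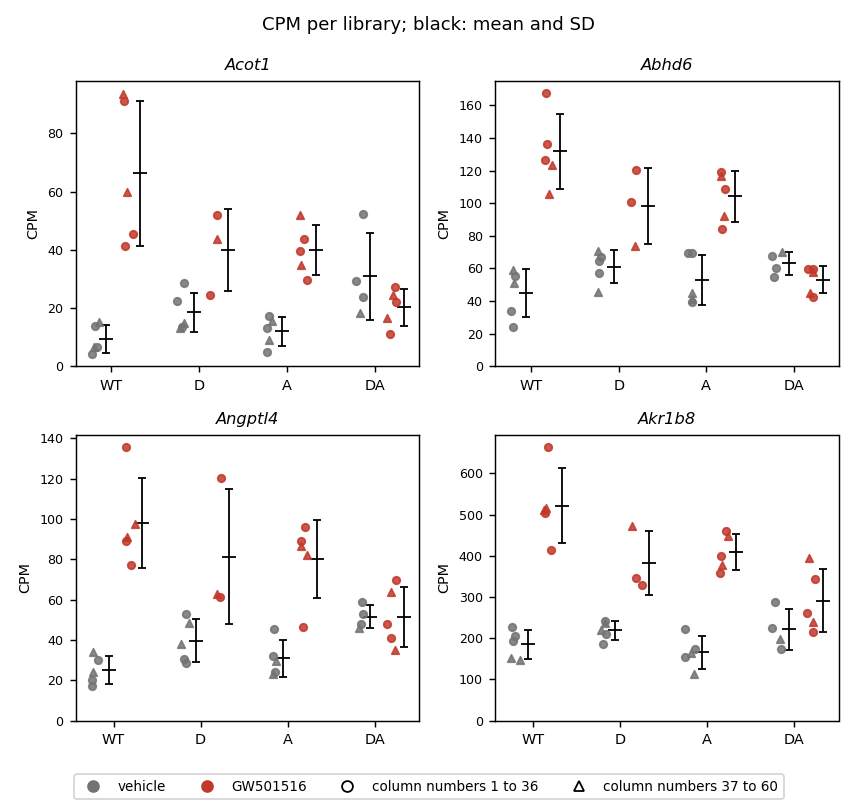
Normalised counts (CPM, linear axes) of Acot1, Abhd6, Angptl4 and Akr1b8 in each library, with the symbols of the plot of genes alike in all genotypes (vehicle grey, GW red, circles 1 to 36, triangles 37 to 60, bars mean and SD). GW libraries lie above vehicle in WT and A for all 4 genes, while the DA groups overlap.

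Mitochondrial fatty acid oxidation had 6 of 19 tested members called higher, against 0.571% of all genes tested, and none lower. It had 15 members higher on average, against 50.2% of all genes tested. Its median was 0.28, beside 0.00 over all genes tested, and 0.44 in WT, 0.21 in D, 0.41 in A and 0.09 in DA. Entry into mitochondria was represented by Cpt1a, which joins fatty acids to carnitine (0.69 ± 0.15, adjusted p = 0.0142), and Slc25a20, which carries them across the inner membrane (0.97 ± 0.15, adjusted p = 5.79e-05, edgeR quasi-likelihood F-test). Slc25a20 had 1.31 in WT, 0.78 in D, 1.52 in A and 0.26 in DA, without overlap of libraries in 3 genotypes. Cpt1a was less ordered, with 0.84, 0.28, 1.04 and 0.58, and it missed the threshold without GW_D library 1 (adjusted p = 0.0908, edgeR quasi-likelihood F-test). Eci2, an isomerase for unsaturated fatty acids, had 0.85 ± 0.09 (adjusted p = 5.71e-08, edgeR quasi-likelihood F-test), the second-smallest p of all genes. In WT, Eci2 had 78.5, 48.8, 55.5, 85.4 and 75.7 CPM in vehicle libraries and 195, 180.03, 159.7, 107 and 175 CPM under GW. Eci2 in D had 102, 64.7, 89.4, 100.1 and 89.6 CPM with vehicle and 137, 137 and 112 CPM with GW. The libraries did not overlap in either. Levels of Eci2 in A were 61.02, 47.7, 57.1, 50.2 and 46.3 CPM in vehicle and 154, 102, 154, 139 and 119 CPM under GW. In DA, Eci2 had 64.6, 69.5, 41.4 and 62.6 CPM and 73.8, 84.3, 76.5, 55.6 and 81.00 CPM in the same order. In A they did not overlap and in DA they did, where 4 of 5 GW libraries exceeded every vehicle library. Acadl, the long-chain acyl-CoA dehydrogenase, had 0.61 ± 0.12, with 0.97 in WT, 0.43 in D, 0.93 in A and 0.09 in DA. Acaa2, the thiolase of the last step, stood just outside the threshold at 0.33 ± 0.09 (adjusted p = 0.0543), and Acadvl, the very-long-chain dehydrogenase, further outside at 0.41 ± 0.12 (adjusted p = 0.114, edgeR quasi-likelihood F-test).

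Peroxisomal fatty acid enzymes and peroxins had 4 of 20 tested members called higher, against 0.571% of all genes tested. On average 15 were higher, against 50.2% of all genes tested. The list had a median of 0.25 on average and -0.07 in DA. Crot, which makes medium-chain acylcarnitines for export from peroxisomes, had 0.63 ± 0.11 (adjusted p = 0.000709, edgeR quasi-likelihood F-test), from 1.06 in WT to -0.08 in DA. Abcd3, an importer of fatty acids, had 0.56 ± 0.10, with 0.95, 0.55, 0.47 and 0.26 in WT, D, A and DA. Pxmp4, a peroxisomal membrane protein, had 0.72 ± 0.17, with 1.47 in A, and missed the threshold without GW_D library 1 or Veh_DA library 4 (highest adjusted p = 0.0869, edgeR quasi-likelihood F-test). Acaa1b, a thiolase, had the highest value of the called genes described here, 1.68 ± 0.41, but only 116 counts over all libraries. Its reads may also be split with its close relative Acaa1a.

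PPAR targets outside oxidation had a median of 0.24 on average and -0.01 in DA. Among 16 tested members, 14 were higher on average, against 50.2% of all genes tested. Called higher were 6 of the 16, against 0.571% of all genes tested. Besides Angptl4 they took in Hsd17b11, a dehydrogenase of lipid droplets (0.73 ± 0.10, adjusted p = 3.72e-06), Creb3l3, a transcription factor of lipid metabolism (0.92 ± 0.16, adjusted p = 0.000493), and Aldh3a2, which oxidises fatty aldehydes (0.72 ± 0.13, adjusted p = 0.000920, edgeR quasi-likelihood F-test). In D, Hsd17b11 had 0.94 and Creb3l3 0.93, each above its DA value of 0.08 or 0.26. Retsat, which saturates retinol, had 0.59 ± 0.13 and missed the threshold without GW_D library 1 (adjusted p = 0.0585, edgeR quasi-likelihood F-test). Pdk4, a kinase that restrains glucose oxidation, had 2 counts over 19 vehicle libraries and 19 over 18 GW libraries, none of them in DA, and was too thinly counted to be tested.

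Of 9 tested genes of fatty acid uptake, binding and activation, 2 were called higher, against 0.571% of all genes tested. Fabp1, an abundant fatty acid carrier of the cytosol, had 0.77 ± 0.15 (adjusted p = 0.00234, edgeR quasi-likelihood F-test), with 1.18 in WT, 0.65 in D, 1.28 in A and -0.02 in DA. Acsl3, which activates fatty acids with coenzyme A, had 0.71 ± 0.17 and its lowest value in D, 0.15. Fabp2, the intestinal fatty acid binding protein, missed the threshold at 0.38 ± 0.10 (adjusted p = 0.0786, edgeR quasi-likelihood F-test). Of 16 tested lipid droplet and lipase genes, Abhd6 and the droplet coat gene Plin2 were called. Plin2 had 0.77 ± 0.15, with 1.38 in WT, 0.75 in D, 0.63 in A and 0.30 in DA. Lipa, the lysosomal acid lipase, had all GW libraries above all vehicle libraries in 3 genotypes but -0.40 in DA, and its mean of 0.45 ± 0.13 was not called (adjusted p = 0.126, edgeR quasi-likelihood F-test). Of 10 tested fatty acid synthesis genes, Me1, which makes NADPH, was called at 0.99 ± 0.21, 2.14 in WT and -0.15 in DA. The desaturase Scd1 missed at 0.55 ± 0.14 (adjusted p = 0.0595, edgeR quasi-likelihood F-test), with all 4 genotypes higher and 0.62 in DA. With the set block Scd1 was called at 0.46 (adjusted p = 0.0242, edgeR quasi-likelihood F-test). Apoc2, the cofactor of lipoprotein lipase, had 0.57 ± 0.12, nearly equal in WT, D and A at 0.79, 0.75 and 0.75, and -0.01 in DA. R3hdm1, named after its values were seen, was the only called gene raised most in DA, by 0.78 against a mean of 0.49 ± 0.11.

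Fabp1 and Apoc2 are shown by sequence because, of 29 called genes with an upstream window in RefSeq (GRCm38.p6, the assembly of mm10), they were those whose 250 bases before the start held a direct repeat spaced by 1 base of the PPAR type. The motif searched was AGGNCANAGGNCA on both strands, in capitals below, with all sequences written on the gene's strand.
Fabp1, chr6:71199629-71199878, + strand: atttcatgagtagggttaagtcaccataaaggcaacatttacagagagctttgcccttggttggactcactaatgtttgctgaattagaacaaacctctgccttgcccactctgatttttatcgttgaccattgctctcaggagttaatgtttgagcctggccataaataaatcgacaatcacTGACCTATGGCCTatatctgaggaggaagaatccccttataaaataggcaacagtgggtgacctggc
Apoc2, chr7:19677942-19678191, - strand: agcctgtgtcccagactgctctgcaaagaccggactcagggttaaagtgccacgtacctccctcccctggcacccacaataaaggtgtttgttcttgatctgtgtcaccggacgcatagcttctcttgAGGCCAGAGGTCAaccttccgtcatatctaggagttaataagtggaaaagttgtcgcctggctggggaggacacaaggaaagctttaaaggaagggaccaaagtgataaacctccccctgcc
In Fabp1 the match read on the opposite strand and ended 54 bases before the start, and in Apoc2 it read on the gene strand, 109 bases before the start. The motif was present in 125 of 32851 windows (0.381%) and in 14 of 3789 tested genes with a window (0.370%). The stricter repeat AGGTCANAGGTCA was found in 13 windows and in no called gene, and the single element AGGTCA in 16.3% of windows and 7 called genes. These counts cover whole windows and not only the 250 bases before the start. Both genes shared values of 0.65 to 1.28 in WT, D and A and a value close to 0 in DA. The pattern was not particular to genes with the motif. Crot, called without it, had 0.60 to 1.06 in WT, D and A and -0.08 in DA. Hadhb, also without it, had 0.49 to 0.80 and 0.02. A match is a description of these letters and not of binding.

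Because each genotype has its own libraries, the genes called for the mean of 3 genotypes could be looked up in the remaining one. With WT held out, 9 genes were called higher in the others, and all 9 were higher and called in WT, with a median of 1.25 against 0.80 in the genotypes that chose them. With A held out, 14 were called higher, all were higher in A, 9 of them called, with a median of 1.11 against 0.76. With D held out, 26 of 28 were higher in D, 14 at an unadjusted p under 0.05 and 0 adjusted, and the median was 0.57 against 0.78. With DA held out, 22 of 36 were higher in DA, 3 at an unadjusted p under 0.05 and 0 adjusted, and the median was 0.09 against 0.89. Over all genes tested the sign was shared in 53.8% for DA and in 54.6% to 56.8% for the rest. Of all genes tested, 0.408% were called in WT and 0.306% in A, in either direction. An unadjusted p under 0.05 was found for 3.24% in D and 3.2% in DA, again in either direction. Genes chosen without DA had a median in DA near that of all genes tested, while those chosen without WT, A or D had medians of 0.57 to 1.25 in the genotype held out. The 4 choices share libraries with one another, and the same fit gave the spread for all groups. Libraries of a set deviated together across groups, so held-out libraries were not fully separate from those that chose the genes. Of the genes called lower without DA, which were Akr1c14, Clec2h and Mpc1, all 3 were lower in DA, with a median of -0.30 against -0.61. Among all genes tested that were lower on average without DA, 53.9% were lower in DA. Akr1c14 had -1.09 ± 0.21 on average (adjusted p = 0.00248, edgeR quasi-likelihood F-test), with -1.70 in WT, -1.31 in D, -0.98 in A and -0.36 in DA.

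**Figure D4:**
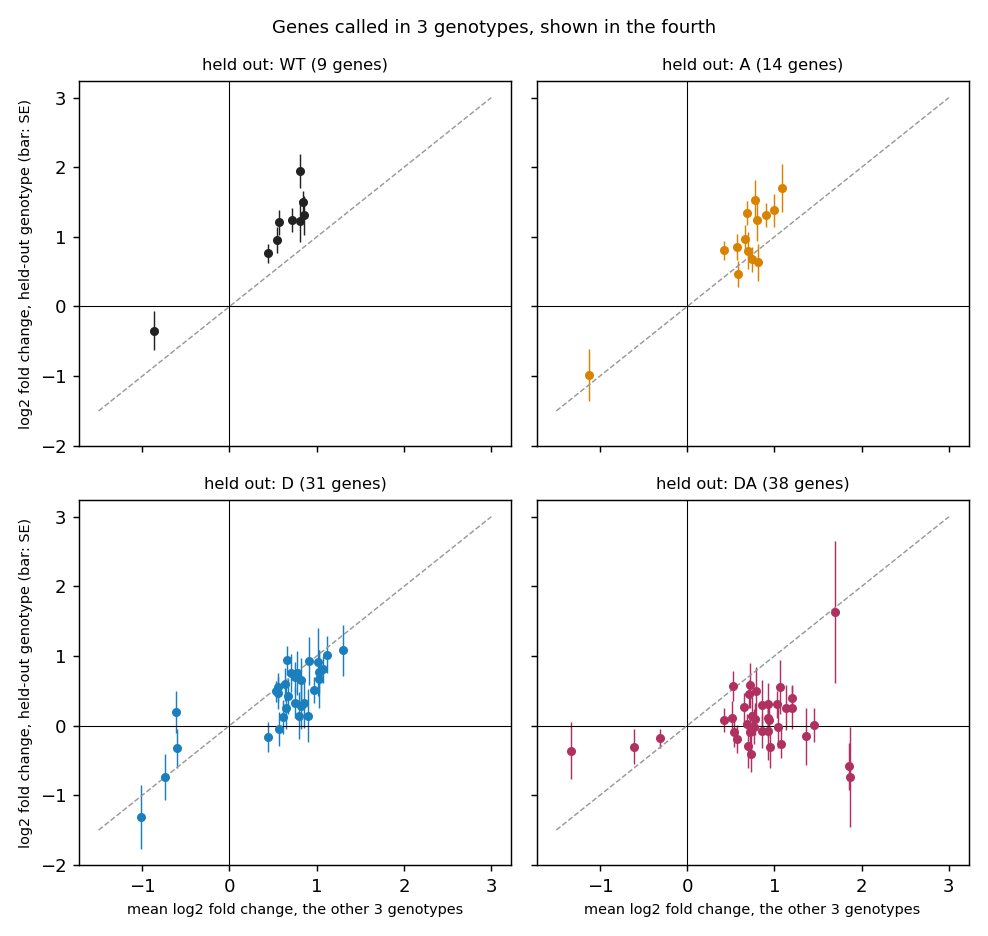
Genes called for the mean of 3 genotypes, with that mean on the x axis and the log2 fold change in the held-out genotype on the y axis (bar: SE), for WT, A, D and DA held out. Points lie at or above the dashed line of equal change for most raised genes in WT and A, and spread around 0 in DA.

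Across libraries, no gene had all GW libraries above all vehicle libraries in all 4 genotypes. In 3 genotypes this held for 9 genes (0.184% of those tested), Abhd6, Akr1b8, Angptl4, Crot, Eci2, Hadhb, Hsd17b11, Lipa and Slc25a20, of which all but Lipa were called for the mean. In the reverse direction it held for none in 3 or 4 genotypes. In at least 1 genotype, such a separation upward was found in 2.84% and downward in 2.28% of the genes tested. In single genotypes, upward separations took in 0.816% of genes in WT, 1.41% in D, 0.53% in A and 0.571% in DA, and downward ones 0.347%, 1.16%, 0.245% and 0.571%. Of the 5 genes alike in all genotypes, Hadha had such a separation in 1 genotype upward and Mpc1 in 1 downward, and Golgb1, Mllt3 and Clec2h in none.

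Of the lists outside lipid metabolism and PPAR targets, the stem cell markers, the enteroendocrine markers and the oxidative stress response had 1 called member each, and the rest had none. None of 25 cholesterol synthesis genes, 14 glycolysis genes, 24 proliferation genes, 27 xenobiotic enzymes or 17 genes of unfolded protein and integrated stress responses was called. Mki67, a marker of dividing cells, had 0.37 ± 0.11, with all 4 genotypes higher, and was not called (adjusted p = 0.177, edgeR quasi-likelihood F-test). The 24 proliferation genes had a median of 0.04, with 16 higher on average, against 50.2% of all genes tested, and 8 lower. Of 76 nuclear oxidative phosphorylation genes 70 were lower on average (92.1%), with a median of -0.09, and of 77 cytoplasmic ribosomal protein genes 73 were lower (94.8%), with a median of -0.07, against 49.8% of all genes tested. None of either list was called. Lower in all 4 genotypes were 19 of the first and 24 of the second (31.2%), against 8.59% of all genes tested. With the set block, Atp5c1 of the first list was called at -0.19 (adjusted p = 0.0338, edgeR quasi-likelihood F-test). Akr1b8 was the only called gene among 25 of the oxidative stress response, where Gpx2, a glutathione peroxidase of the gut, had 0.25 ± 0.07 (adjusted p = 0.186, and 0.0480 with the set block, edgeR quasi-likelihood F-test).

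Among cell type markers, none of 21 enterocyte, 12 Paneth cell or 9 goblet cell genes was called. The enterocyte disaccharidase Sis had -0.50 ± 0.14 and the glucose transporter Slc5a1 -0.44 ± 0.15, lower in all 4 genotypes and not called (adjusted p = 0.134 and 0.305, edgeR quasi-likelihood F-test), while Fabp2 and Apoa4 of the same list were higher on average. With the set block these 4 and Rbp2, a retinol binding protein, were called, Sis at -0.51 and Slc5a1 at -0.49, and Fabp2 at 0.44, Apoa4 at 0.41 and Rbp2 at 0.38, the last 3 with values from -0.31 to -0.04 in DA. All 8 tested enteroendocrine markers were higher on average, against 50.2% of all genes tested, with a median of 0.38. Only 2 of the 8 were higher in all 4 genotypes, against 8.96% of all genes tested. Their medians by genotype were 0.45 in WT, 0.70 in D, 0.20 in A and 0.15 in DA. Among the 8 markers Reg4, a secreted lectin, was called at 0.63 ± 0.15 (adjusted p = 0.0309, edgeR quasi-likelihood F-test). Reg4 had 1.68 in WT, 0.14 in D, 1.02 in A and -0.31 in DA. The Reg4 call was lost in 12 of the 37 fits that left out 1 library (highest adjusted p = 0.186), in the additive model of genotype and treatment (adjusted p = 0.123), in libraries 1 to 36 (adjusted p = 0.3205, edgeR quasi-likelihood F-test), and in the averages without A and without WT. The hormone gene Sct had 0.44 ± 0.16 and was not called. The summed level of the 24 markers of the list was 172 to 441 CPM in vehicle (median 270.1) and 282 to 550 CPM under GW (median 361.9). Stromal markers had 15.6 to 56.7 CPM in vehicle and 15.2 to 35.3 under GW, with 8 of 12 at 0. Whether a change in cell makeup has a part in the called genes was not tested.

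**Figure D5:**
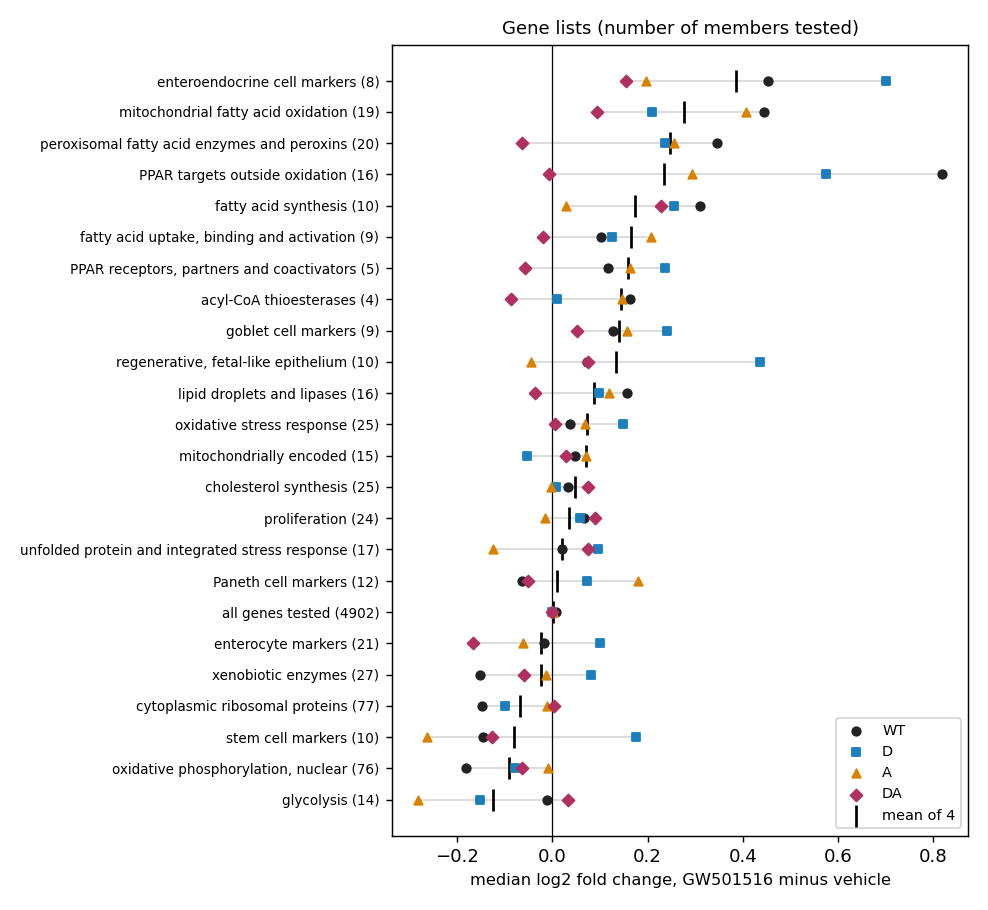
Median log2 fold change (GW minus vehicle) over the tested members of each gene list, in each genotype (symbols as in the plot of genes by genotype) and for the mean of the 4 (vertical bar). The lists of fatty acid oxidation, peroxisomes and PPAR targets have positive medians in WT, D and A and values near 0 in DA, beside medians near 0 for all 4902 genes.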

How the data were processed

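Organoid RNA was profiled as 3′ digital gene expression. The deposited tables hold counts by Ensembl identifier and log2 CPM values. The submitters' processing notes name mm10, edgeR 3.26.8, R 3.6.2 and Salmon 1.1.0. The deposited log2 values were compared with the counts and not tested: back-transformed, 88.6% of nonzero values came within 0.01 of an integer, and the largest gap to the deposited count was 1.47. Columns were grouped by treatment and genotype in their names, and libraries numbered in column order within a group (GW_DA library 1 is the first GW column of DA). Of 57 columns, 20 were not used, 19 with the letters KD and 1 GW-in-D column with the suffix 2. Symbols came from GENCODE M21 (54109 of 54352 identifiers matched).

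Genes were filtered with filterByExpr, scaled with TMM and fitted over 8 groups with edgeR 4.0.16 in R 4.3.3 (glmQLFit, glmQLFTest), adjusted by Benjamini-Hochberg over 4902 genes. The SE is the log2 fold change divided by the square root of F. DESeq2 1.42.0, limma 3.58.1, other filters and scalings, library ranges, a block for 6 sets of library numbers (added after seeing the data) and left-out libraries were alternatives. The fit was tested on simulated data. Named genes were those with the 12 largest changes each way, those alike in all genotypes, those with called interactions, up to 4 with the smallest p per list and fixed reference genes. Acadl, Apoc2, R3hdm1, Retsat and the genes added by the set block were named after their values were seen. Members and lists were chosen with earlier results of these data known, and 1 called gene is counted but not reported here. Total counts of 353347 to 577557 limit precision for genes of few counts.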

Additional observations from a re-analysis of the deposited data

Results flagged for a closer look

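Groups of 4 or 5 libraries were searched for a library far from the others, over the total counts and the genes whose levels are printed. Of 84 such groups 4 stood out, where chance gives about 1 in 20. Mllt3 had 8.65 CPM in GW_A library 5, against 25.04 to 27.1 CPM in the other GW libraries of A. Mpc1 had 308 CPM in GW_A library 4, against 373 to 396 CPM. Angptl4 had 46.7 CPM in GW_A library 1, against 82.2 to 96.0 CPM. GW_DA library 2 had a total of 395033 counts, against 479830 to 512122 in the other GW libraries of DA.

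The GW effect differed among genotypes for 3 genes by the interaction test (edgeR quasi-likelihood F-test, Benjamini-Hochberg). For Acot1 the adjusted p was 0.00227 and the log2 fold changes ran from -0.59 in DA to 2.78 in WT. For Abhd6 it was 0.00980, with -0.26 in DA and 1.54 in WT. For Angptl4 it was 0.0391, with 0.01 in DA and 1.95 in WT.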

How the results depend on the processing

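The columns carry no replicate numbers of the labels, so the pairing was tried through 6 sets of library numbers. Over genes, residual correlations were above 0.1 in 89 of 103 pairs of libraries of the same set (median 0.18) and in 74 of 494 pairs of different sets (median -0.06), and 36 of 37 libraries correlated best with their own set, a hint from the data and not the design. The replicate block by set called 59 genes for the mean, 47 higher and 12 lower, sharing all 32, and 8 interactions, 7 differences of DA, 1 gene in D, 16 genes alike and 31 called in no single genotype. No result changed sign for the mean effect or the difference of DA under any setting run. RLE size factors, limma-trend and the block for the ranges of library numbers called 32, 34 and 37 genes for the mean and shared all 32, and DESeq2 called 33 with 31 shared. DESeq2 called 5 genes for the interaction, 1 in DA, and 7 that no single genotype called.

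Without a filter on low counts, 54 genes were called for the mean, 18 of them lower, 31 for the interaction and 18 for the difference of DA. That fit called 45 genes in WT, 8 in D, 28 in A and 10 in DA, and 9 met the rule for alike changes, 2 of them shared with the 5. Libraries 1 to 36 alone called 14 genes for the mean, 14 higher and 0 lower, 0 for the interaction, 0 for the difference of DA, 11 in WT and 3 in A, with 1 gene alike and 3 called in no single genotype. Libraries 37 to 60 alone gave 12 genes lower, 1 interaction, 0 differences of DA, 10 genes alike, none of them among the 5, and 20 called in no single genotype. Without the columns of suffix 2, the interaction called 1 gene and 12 were alike, all 5 among them. The average without A called 15 genes (14 higher, 1 lower) and the average without WT 10 (9 higher, 1 lower). A minimum share of 0.25 of the mean in each genotype gave 14 genes alike, and 0.75 gave 1.

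Leaving out each of the 37 libraries in turn gave 26 to 36 genes for the mean, 22 to 32 higher and 2 to 7 lower, 1 to 4 interactions, 2 to 3 differences of DA, 2 to 9 genes alike and 7 to 17 called in no single genotype, with 16 to 24 in WT, 6 to 16 in A, and 0 in D and DA. The interaction fell to 1 gene without Veh_DA library 2 or 4, and the calls in A to 6 without GW_A library 5. Over 47 settings Golgb1 stayed alike in 44, Mllt3 in 41, Mpc1 in 32, and Hadha and Clec2h in 29 each. The mean effect missed the threshold in 17 of the left-out fits for Acaa1b, 12 for Reg4 (also lost in the additive model), 11 for Acsl3 and 6 for R3hdm1. The causes of these moves were not tested. Ppard, Pdk4 and Lgr5 were too thinly counted to compare.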
